A study of Mus musculus with 8 samples.

Results

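Apln, Aplnr, Esm1 and Plaur are 4 genes linked to the sprouting of new vessels. They encode the peptide apelin, its receptor, the secreted proteoglycan endocan and the urokinase receptor. They were compared between sorted cells of the cortex and of the lung of mouse embryos. Each gene was read from the probe set that names it alone and has the highest mean over the 8 arrays. The 4 genes are 4 of 18193 genes measured in this way. They were taken by name, with earlier results of these data known.

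A sprouting vessel is led by a tip cell, which extends filopodia towards growth factors, and is followed by stalk cells, which form the lumen. Apln and Esm1 are widely used markers of tip cells, and Plaur has been listed among genes enriched in them. Apelin acts on Aplnr, a G-protein-coupled receptor of endothelial cells, and both take part in vessel growth and calibre. Plaur holds urokinase at the cell surface, where it activates plasminogen and so the breakdown of matrix at the vessel front.

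The embryos came from homozygous Tie2-GFP mice, whose transgene expresses green fluorescent protein in endothelial cells from the Tek promoter (Tek is also called Tie2). Cortex, cleared of meninges and choroid plexus, and lungs were dissected at E13.5 (embryonic days, counted from the vaginal plug) and dissociated with collagenase. GFP-positive cells were then sorted, and both tissues carry the transgene, with no other treatment. Each replicate pooled the 10 to 13 embryos of a litter, with 4 arrays per tissue. Arrays are named here by tissue and by the sample number in the labels (72, 22, 19 and 18). The labels do not say whether an equal number marks the same litter.

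The sorts held other cells besides endothelial cells. A list of 25 pan-endothelial genes averaged 9.59, 10.92, 11.05 and 9.20 on cortex arrays 72, 22, 19 and 18. The same mean lay between 11.19 and 11.74 in lung, above every cortex array. Each of 16 neural genes was called higher in cortex, where their mean ran from 11.21 to 11.75, against 6.05 to 6.48 in lung. Of 14 macrophage genes 4 were called higher in cortex and 0 in lung, with a list mean of 5.70 to 8.60 in cortex and 5.33 to 6.46 in lung. Of 15 mural and mesenchymal genes 9 were called higher in lung and 1 in cortex, with a list mean of 6.39 to 7.02 in cortex and 7.23 to 9.29 in lung. Of 10 lung epithelial genes 1 was called higher in cortex and 2 in lung, with a list mean of 6.86 to 7.89 in cortex and 7.13 to 8.25 in lung. Of 8 choroid plexus and meningeal genes 2 were called higher in cortex and 1 in lung, with a list mean of 6.95 to 7.67 in cortex and 5.94 to 6.75 in lung. Of 10 erythroid and megakaryocyte genes 1 was called higher in cortex. Over all genes 10.4% were called higher in cortex and 7.71% in lung. No gene reads 0 on this scale, since log2 values have no true zero. For 4 samples, those numbered 19 and 18, the free description names the other tissue, and the tissue was taken from their titles, which the neural markers match on all 8 arrays.

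The promoters of 3 of the 4 genes are shown for reasons described below. On the chosen probe sets, Apln and Esm1 were the pair that moved most alike from array to array. Plaur was the gene called between tissues. Each is the 250 bases before a start of transcription in RefSeq (build GRCm38.p6), written 5' to 3' on the gene's own strand. For Plaur that start lies within the gene, and Aplnr has no entry in that table. Capitals mark matches to any of 5 motifs searched on both strands. They were the hypoxia response cores ACGTG and GCGTG, the AP-1 site TGANTCA, the Sp1 box GGGCGG and the TATA box TATAAA.
Apln: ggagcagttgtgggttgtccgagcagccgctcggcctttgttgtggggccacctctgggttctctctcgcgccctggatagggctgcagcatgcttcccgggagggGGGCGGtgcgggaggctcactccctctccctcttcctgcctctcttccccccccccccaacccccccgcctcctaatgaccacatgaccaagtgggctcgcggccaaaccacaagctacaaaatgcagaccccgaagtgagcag
Esm1: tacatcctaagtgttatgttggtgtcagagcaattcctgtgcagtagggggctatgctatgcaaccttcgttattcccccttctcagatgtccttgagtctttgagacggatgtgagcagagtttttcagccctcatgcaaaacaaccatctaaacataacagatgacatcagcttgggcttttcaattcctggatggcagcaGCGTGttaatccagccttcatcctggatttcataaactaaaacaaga
Plaur: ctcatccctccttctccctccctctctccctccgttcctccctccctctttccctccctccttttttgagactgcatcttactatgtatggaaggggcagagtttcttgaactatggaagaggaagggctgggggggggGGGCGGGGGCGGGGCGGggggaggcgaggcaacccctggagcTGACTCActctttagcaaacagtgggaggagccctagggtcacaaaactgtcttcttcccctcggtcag
The Apln promoter lies at chrX:48034854-48035103 on the minus strand, with 65.2% G and C. It held a single match, an Sp1 box 144 bases before the start. The Esm1 promoter lies at chr13:113209409-113209658 on the plus strand, with 44% G and C. It held the core GCGTG 47 bases before the start. The Plaur promoter lies at chr7:24462233-24462482 on the plus strand, with 59.6% G and C. RefSeq places the gene at chr7:24460937-24475970, so the printed stretch lies inside the gene, not before its first base. The stretch held a run of 3 Sp1 boxes at 111, 105 and 100 bases before its start, of which the last 2 share a base. It also held an AP-1 site at 69. Of 32851 mouse promoters of this length, 32.7% held GGGCGG, 28.2% GCGTG, 16.6% ACGTG, 12.4% TATAAA and 6.75% TGANTCA. No motif was found in both Apln and Esm1, and a match describes letters only, not a site in use.

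Among the 4 genes, Plaur alone passed the test between tissues and was higher in lung, while all 4 had the lower mean in cortex. Scaling to an equal pan-endothelial mean turned that sign for Apln, Aplnr and Esm1 and brought Plaur to 0.01. Over all genes, 3291 of 18193 (18.1%) passed an adjusted p under 0.05, with 1888 (10.4%) on the cortex side and 1403 (7.71%) on the lung side. With every array centred on its median, the split over all genes was 1660 towards cortex and 1732 towards lung. The median difference of all genes, cortex minus lung, was -0.09. Values are log2 expression values, so a difference of 1 stands for a change of 2-fold, and values of different probe sets are not compared with each other.

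The apelin ligand gave wide values in cortex and no called difference. Apln read 7.49, 8.74, 8.97 and 7.27 on cortex arrays 72, 22, 19 and 18. It read 8.81, 7.94, 8.52 and 7.99 on the lung arrays of the same numbers. Cortex 22 and 19 stood beside or above the highest lung array, and cortex 72 and 18 below the lowest, so the tissues overlapped. The cortex mean was 8.12 ± 0.86 (SD, n = 4) and the lung mean 8.32 ± 0.42. The difference was -0.20 (SE 0.41, 95% interval -1.15 to 0.74, limma adjusted p = 0.767). The interval leaves room for a change of 2-fold towards lung, so a p above the threshold does not show equal levels. In such pooled cells, fewer endothelial cells and less RNA of a gene per cell cannot be told apart.

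The receptor was lower in cortex by a margin that missed the threshold. Aplnr read 11.81, 12.89, 13.16 and 11.89 on cortex arrays 72, 22, 19 and 18, and 12.97, 13.48, 13.25 and 13.58 on the lung arrays. Only cortex 19 reached into the range of lung, and cortex 72 and 18 were again the low pair. The means were 12.44 ± 0.69 (SD, n = 4) in cortex and 13.32 ± 0.27 in lung, a difference of -0.88 (SE 0.33, 95% interval -1.63 to -0.14) or 1.84-fold higher in lung, with an adjusted p of 0.101 over all genes. Without cortex 19 the difference was -1.12 and passed, with an adjusted p of 0.0387. A further probe set of Aplnr gave -1.14, with an adjusted p of 0.186 over all probe sets. It read 10.37, 12.20, 12.12 and 10.61 in cortex and 13.02, 12.42, 12.73 and 11.67 in lung. Lung 18 was the highest lung array on the chosen probe set and the lowest on this further one, so the probe sets disagree on the order of the lung arrays.

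Esm1, the gene of endocan, was read low on both tissues and varied most from array to array. It read 4.96, 5.79, 6.88 and 4.24 on cortex arrays 72, 22, 19 and 18, and 6.89, 5.49, 6.66 and 5.12 on the lung arrays. The highest cortex value and the highest lung value were nearly equal, and the tissues overlapped over most of their range. The means were 5.47 ± 1.13 (SD, n = 4) and 6.04 ± 0.87, a difference of -0.57 (SE 0.61, 95% interval -1.95 to 0.81, limma adjusted p = 0.550). It was -1.04 without cortex 19 and -0.16 without cortex 18, the ends of the range when 1 array was left out. The gene reached a value of 6 on 3 of 8 arrays, and the arrays' medians over all probe sets were 6.59 to 6.72. Differences near the lower end of this scale are compressed, so a ratio read from such values understates the difference in RNA.

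Plaur, the urokinase receptor, was higher in lung on every array. It read 6.58, 6.64, 7.28 and 6.41 on cortex arrays 72, 22, 19 and 18, and 8.73, 7.40, 8.23 and 7.94 on the lung arrays. The highest cortex array lay just under the lowest lung array, so the tissues did not overlap. This also held, in the same direction, for 2189 of 18193 genes (12.0%). The means were 6.73 ± 0.38 (SD, n = 4) and 8.08 ± 0.56, a difference of -1.35 (SE 0.30, 95% interval -2.04 to -0.66) or 2.54-fold higher in lung, with an adjusted p of 0.0159 over all genes. Leaving out each array in turn gave differences of -1.57 to -1.13, with adjusted p-values of 0.00836 to 0.0488. Without both cortex 72 and cortex 18 it was -1.12, with an adjusted p of 0.156. The mural and mesenchymal list and the pan-endothelial list, given above, were also higher in lung, and their part in this difference was not tested.

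**Figure D1:**
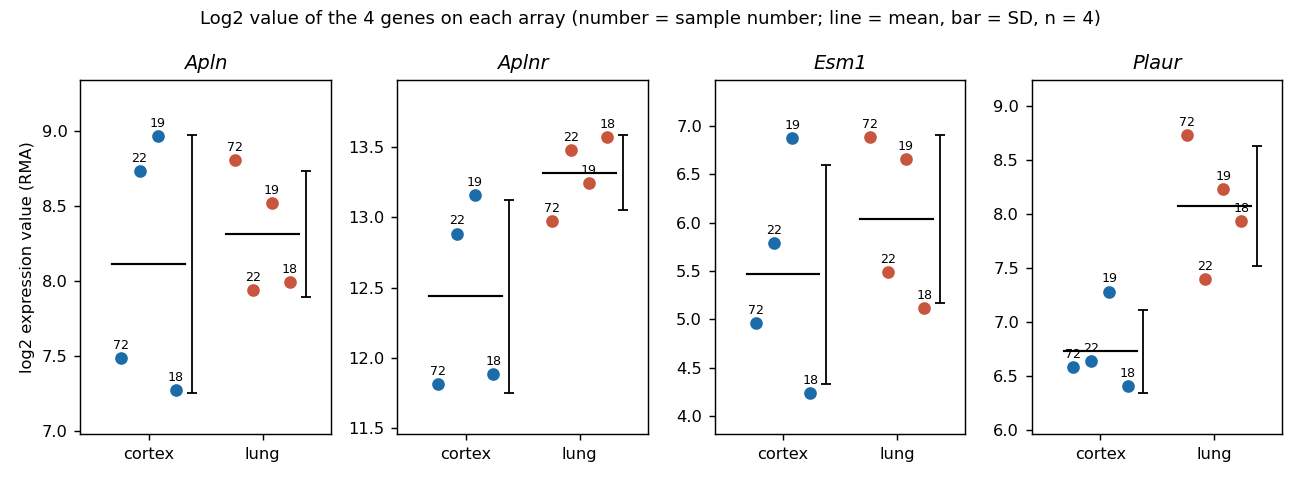
Log2 expression value of Apln, Aplnr, Esm1 and Plaur (vertical axes) on the 4 cortex and 4 lung arrays; each point is an array with its sample number, the line is the mean and the bar the SD. Cortex 72 and 18 lie below cortex 22 and 19 for each gene, and only for Plaur do all lung points, 7.40 to 8.73, lie above all cortex points, 6.41 to 7.28.

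The spread of the cortex arrays followed their pan-endothelial mean for Apln, Aplnr and Esm1, and much less for Plaur. Cortex 22 and 19, with the higher mean, were higher than cortex 72 and 18 for all 4 genes. For Plaur, however, cortex 22 (6.64) lay barely above cortex 72 (6.58). Relative to the pan-endothelial mean, the cortex SD of Plaur rose from 0.38 to 0.69, while those of Apln, Aplnr and Esm1 fell. Each gene was therefore also taken relative to the pan-endothelial mean of its array, and the tissues compared by exact permutation over the 70 splits of 8 arrays, two-sided, for which 0.0286 is the smallest p. On this relative scale a difference is larger by 1.36 than on the deposited one, and the median gene stands at 1.27.

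Relative to that mean, Apln was nearly constant in cortex. It lay between -2.19 and -1.92 on the cortex arrays and between -3.71 and -2.82 on the lung arrays, with no overlap. The means were -2.07 ± 0.11 (SD, n = 4) and -3.23 ± 0.36, a difference of 1.16 towards cortex (exact permutation p = 0.0286, adjusted p = 0.114 over the 4 genes). An adjusted p of 0.114 is the smallest that a single gene among 4 can reach here, and the difference is below the 1.27 of the median gene. Among the 25 listed pan-endothelial genes, 23 had a lower cortex minus lung difference than Apln, and the exceptions were Cldn5 (-0.13) and Flt1 (0.11).

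The other members differed less on this scale. Aplnr stood 2.25 ± 0.31 above the pan-endothelial mean in cortex and 1.77 ± 0.46 above it in lung (difference 0.48, exact permutation p = 0.171, adjusted p = 0.229). Esm1 stood at -4.72 ± 0.42 in cortex and -5.51 ± 0.71 in lung (difference 0.79, exact permutation p = 0.143, adjusted p = 0.229). Plaur stood at -3.46 ± 0.69 and -3.47 ± 0.57, a difference of 0.01 (exact permutation p = 1). Plaur was thus lower in cortex by about as much as the pan-endothelial list, whose 25 differences ran from -4.46 (Gpihbp1) to 0.11 with a median of -1.21. A lower difference than that of Plaur was found for 9 of the 25, than that of Aplnr for 20 and than that of Esm1 for 21. Leaving out each array in turn kept Apln between 1.003 and 1.30, Aplnr between 0.33 and 0.68, Esm1 between 0.57 and 1.05 and Plaur between -0.24 and 0.29.

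**Figure D2:**
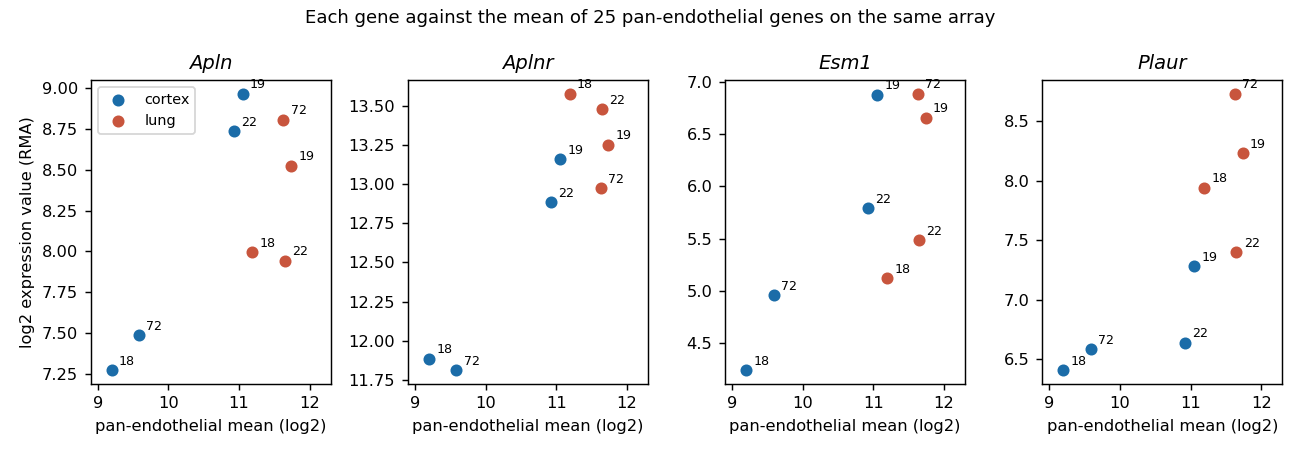
Log2 expression value of each of the 4 genes (vertical axes) against the mean log2 value of 25 pan-endothelial genes on the same array (horizontal axes); each point is an array, coloured by tissue and marked with its sample number. Cortex 72 and 18, at pan-endothelial means of 9.59 and 9.20, are low in every panel, and for Apln the lung points lie to the right of the line that the cortex points follow.

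With the fit across all genes repeated on arrays shifted to an equal pan-endothelial mean, none of the 4 genes was called. Apln was at 1.16 (limma adjusted p = 0.0730), Esm1 at 0.79 (0.202), Aplnr at 0.48 (0.438) and Plaur at 0.01 (0.982). Removing cortex 72 and cortex 18 in place of rescaling moved Apln to 0.53, Esm1 to 0.29 and Aplnr to -0.30, with none called. The sign of Apln thus changed with the choice of arrays, and it also turned without cortex 72 alone (0.01) or cortex 18 alone (0.08).

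**Figure D3:**
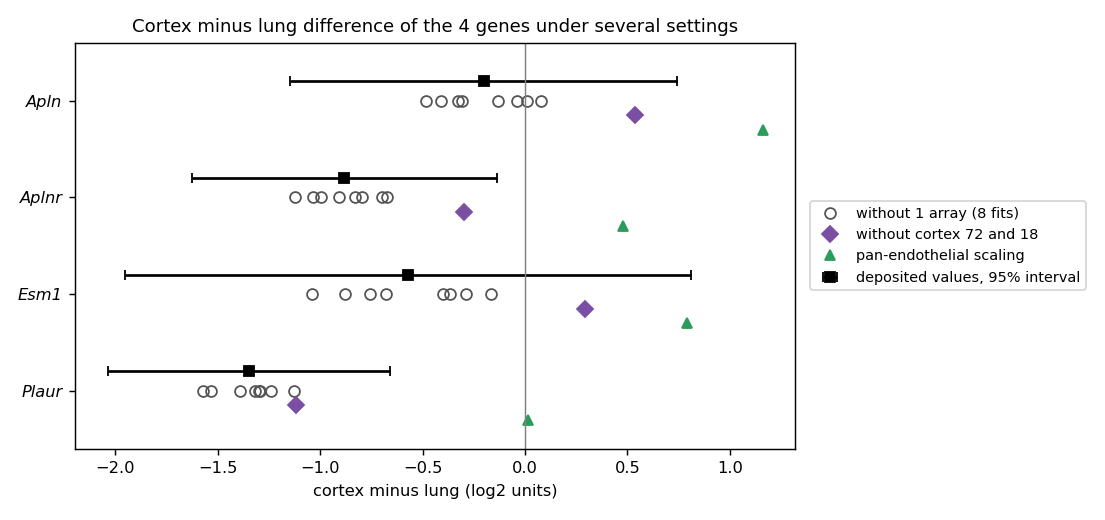
Cortex minus lung difference of the 4 genes in log2 units (horizontal axis) with the deposited values and their 95% interval (squares), without each of the 8 arrays in turn (open circles), without cortex 72 and 18 (diamonds) and after scaling to an equal pan-endothelial mean (triangles). Plaur stays below -1 except after scaling, where it is 0.01, while the circles of Apln lie on both sides of 0, from -0.49 to 0.08.

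Differences between members were compared within arrays, over the 6 pairs. The largest was between Apln and Plaur, since the cortex minus lung difference of Apln exceeded that of Plaur by 1.15 (exact permutation p = 0.0286, adjusted p = 0.171). Esm1 exceeded Plaur by 0.78 (exact permutation p = 0.229), Apln exceeded Aplnr by 0.68 (0.143), Aplnr exceeded Plaur by 0.46 (0.343), Apln exceeded Esm1 by 0.37 (0.257) and Esm1 exceeded Aplnr by 0.31 (0.629). With 4 arrays per tissue, 1 pair alone at the smallest p of 0.0286 cannot fall below 0.171 after adjustment over 6. Only Apln with Plaur reached that p. No pair passed after adjustment, which does not show that the members are alike.

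From array to array, the closest pair on the chosen probe sets was Apln with Esm1. Their Pearson r was 0.92 over the 8 arrays and 0.93 over the deviations from each tissue's mean. On deviations it was 0.82 for Esm1 with Plaur, 0.74 for Apln with Plaur and 0.67 for Apln with Aplnr. It was 0.47 for Aplnr with Esm1 and 0.16 for Aplnr with Plaur, so on deviations the chosen probe set of Aplnr followed the other genes least. Over the 8 arrays the lowest r was 0.52, for Apln with Plaur. The further probe set of Aplnr, which puts the lung arrays in another order, was not part of these correlations. These are descriptions over 8 arrays that share the array-wide differences in endothelial level described above.

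The genes most like each member were those with the highest Pearson r over the 8 arrays, among 6043 genes with an SD of at least 0.5. For Apln they were Car2 (carbonic anhydrase, r = 0.976), Pdgfb (0.970), Lhfpl2 (0.957), Slc31a2 (0.956) and Hbegf (0.955). Pdgfb encodes the growth factor by which sprouts recruit pericytes, with means of 9.09 ± 1.29 (SD, n = 4) in cortex and 9.61 ± 0.41 in lung. For Aplnr they were Myadm (0.991), the small GTPase gene Rhoc (0.984), Sox13 (0.980), Plec (0.978) and Flt4 (0.977), the last encoding VEGF receptor 3.

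For Esm1 they were Tcaf2 (0.969), Mcc (0.962), Fam102b (0.953), Pgm2 (0.952) and Tlr4 (0.951). For Plaur they were Mrpl1 (0.985), Renbp (0.983), S1pr2 (0.981), a receptor for sphingosine 1-phosphate, B3gnt9 (0.977) and Fkbp11 (0.973). The 5 genes nearest Plaur were lower in cortex by 0.84 (Renbp) to 1.96 (Fkbp11), a direction that the choice by likeness to Plaur largely fixes. No gene was near more than 1 member.

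Of the apelin axis, 18 listed genes were measured. In cortex 3 were called higher and in lung 4, beside 10.4% and 7.71% of all genes, with 11 not called. The median difference was -0.27, and 7 of 18 passed in either direction, beside 18.1% of all genes. Apela, the gene of the second ligand of Aplnr, was higher in cortex. It read 8.19, 5.98, 6.45 and 6.43 on cortex arrays 72, 22, 19 and 18, and 5.53, 4.93, 5.04 and 4.80 on the lung arrays. The tissues did not overlap, and cortex 72 stood apart at the top. The difference was 1.69 (SE 0.44), 3.23-fold higher in cortex, with an adjusted p of 0.0303. The call was lost without cortex 18, lung 22, lung 19 or lung 18, with adjusted p-values of 0.0518 to 0.0724, and a further probe set read -0.82. Apela is thus the ligand whose mean was higher in cortex, on a probe set that reached 6 on 3 of 8 arrays.

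Downstream of the receptor, the arrestin gene Arrb1, whose product uncouples such receptors, was 3.08-fold higher in lung. It read 9.38 to 9.75 on the cortex arrays and 10.95 to 11.59 on the lung arrays, with a difference of -1.62 (adjusted p = 0.000375). Klf4, a flow-responsive transcription factor, was lower in cortex by 1.56 (adjusted p = 0.00620). Gja5, an arterial connexin, was lower by 1.05 (adjusted p = 0.0141), and Mef2c, a transcription factor, was lower by 0.95 (adjusted p = 0.0185). Hdac5, a histone deacetylase that holds MEF2 factors in check, was 2.54-fold higher in cortex (difference 1.35, adjusted p = 0.0117). Gnaq, a G-protein subunit, was 1.45-fold higher there (difference 0.53, adjusted p = 0.0491), a call that was lost without any single array. Neural genes were higher in the cortex sorts, and their part in these cortex-high values was not tested. After scaling to an equal pan-endothelial mean, 8 of the 18 were called in cortex and 0 in lung, beside 45.0% and 0.753% of all genes, while the median was 1.09 beside 1.27 for all genes. Without cortex 72 and 18 the counts were 1 and 2. Leaving out 1 array at a time gave 1 or 2 calls in cortex, with 1 without cortex 18, lung 22, lung 19 or lung 18, and 3 or 4 in lung.

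Of 24 other tip cell genes 22 were not called, 1 was called higher in cortex and 1 in lung. Over all genes the shares were 10.4% and 7.71%. Adm, the gene of the vasodilator peptide adrenomedullin, was 4.80-fold higher in cortex. It read 11.54, 12.34, 12.65 and 11.06 on cortex arrays 72, 22, 19 and 18 and 9.83, 9.495, 9.78 and 9.43 on the lung arrays, so the tissues were far apart. The difference was 2.26 (SE 0.34, adjusted p = 0.00203), and the call held under every alternative that was run. Plxnd1, the receptor of a repulsive semaphorin, was 2.88-fold higher in lung (difference -1.53, adjusted p = 0.0398). Its call was lost under 6 of the 8 fits that left out an array, all but those without cortex 19 or cortex 18.

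The tip cell genes most often used beside Apln and Esm1 overlapped between tissues. The difference was 0.52 for Angpt2, a ligand that loosens vessels, 0.64 for Kcne3, a potassium channel subunit, and 0.27 for the basement membrane gene Nid2. It was -0.14 for the Notch ligand Dll4, -0.50 for the netrin receptor Unc5b, -0.52 for Pdgfb and -0.51 for Kdr, the main VEGF receptor. Without cortex 19 Angpt2 was at 0.12 and Kcne3 at 0.02, and without cortex 18 they were at 1.18 and 1.09. Over the fits that left out 1 array, Pdgfb ran from -0.89 (without cortex 22) to -0.06 (without cortex 18) and Kdr from -0.84 (without cortex 19) to -0.21 (without cortex 72 or cortex 18). Cxcr4, a chemokine receptor, was at 0.66 (limma adjusted p = 0.285), and without cortex 72 and 18 it was at 1.37 and passed (adjusted p = 0.0182). The list's median difference was -0.50, beside -0.09 for all genes. After scaling to an equal pan-endothelial mean it was 0.86 beside 1.27, with 5 of the 24 genes called in cortex and 0 in lung, where the shares of all genes were 45.0% and 0.753%. Cd34, Kdr and Robo4 of this list are also among the pan-endothelial genes that set the scaling. Leaving out 1 array at a time moved the count called in lung between 0 and 5. It was 5 without cortex 19 and 0 without cortex 72 or without any single lung array.

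**Figure D4:**
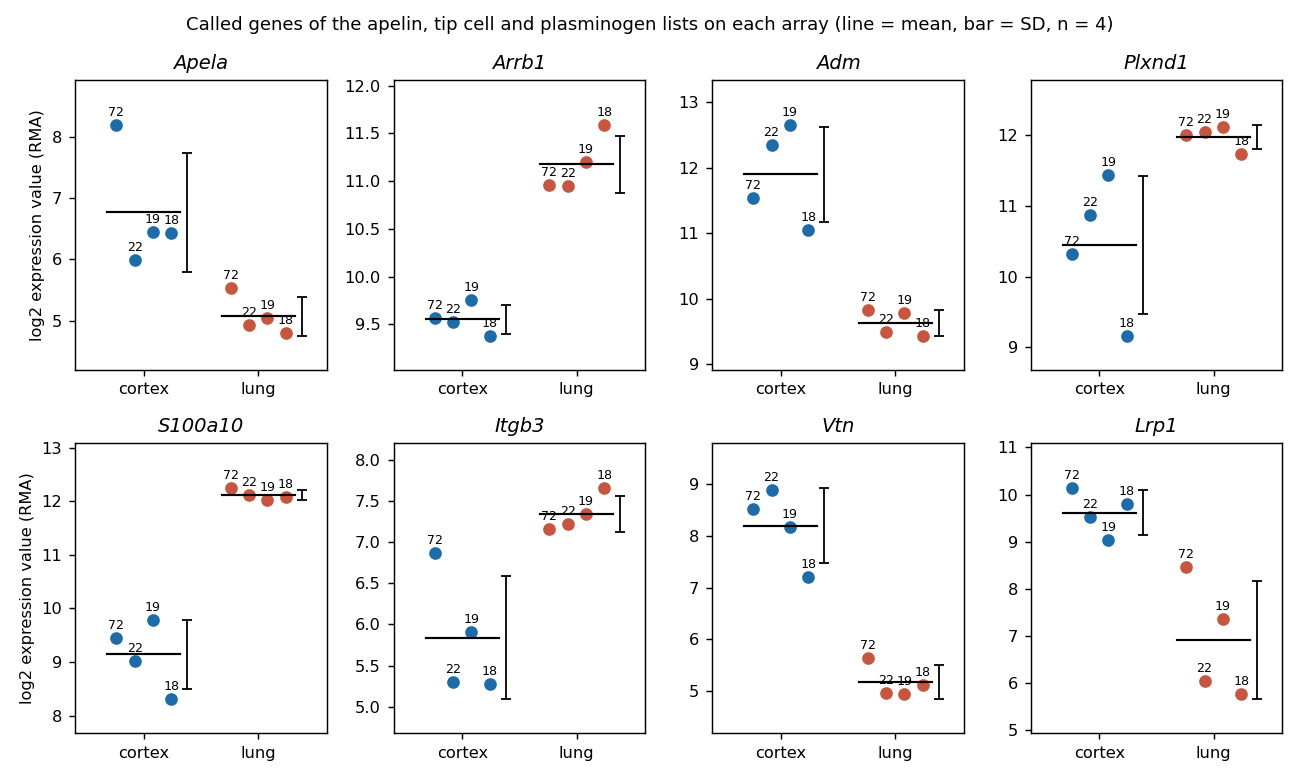
Log2 expression value of 8 called genes of the apelin, tip cell and plasminogen lists (vertical axes) on the 4 cortex and 4 lung arrays; points are arrays with their sample numbers, lines are means and bars SDs. Adm and Vtn are higher on every cortex array and Arrb1 and S100a10 on every lung array, while the cortex points of Plxnd1 spread from 9.16 to 11.44.

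Of 14 stalk cell genes 2 were called, both higher in lung, beside 7.71% of all genes, with a median difference of -0.56. They were Vwf, the gene of von Willebrand factor, lower in cortex by 2.10 (4.28-fold, adjusted p = 0.0115), and the receptor gene Tie1, lower by 1.44 (adjusted p = 0.0180). The call of Tie1 was lost without cortex 72 (adjusted p = 0.0541). After scaling to an equal pan-endothelial mean neither gene was called. Vwf was then at -0.74 (limma adjusted p = 0.234) and Tie1 at -0.08 (limma adjusted p = 0.899). Tek, Tie1 and Flt1 of the stalk cell list are also in the pan-endothelial list. The medians of the tip and stalk lists were -0.50 and -0.56, beside -0.09 for all genes, and were not tested against each other. Without cortex 18 they were -0.12 and -0.18, and without cortex 19 -0.82 and -0.66. Without cortex 72 the tip cell median was -0.29, and without lung 72 the stalk cell median was -0.24. Tek, whose promoter drives the sorted reporter, was at -1.24 (adjusted p = 0.0575). It passed with the filter on dim genes (adjusted p = 0.0425), centred arrays (0.0440), array weights (0.0289), an intensity trend (0.0357) or a replicate block (0.0260), and without cortex 22 (0.0374) or cortex 19 (0.0379).

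Of 13 arterial genes 3 were called higher in lung and 0 in cortex, and of 5 venous genes 3 and 0, beside 7.71% and 10.4% of all genes. Bmx, a kinase of arterial endothelium, read 9.24-fold higher in lung (difference -3.21, adjusted p = 0.00736), and Acvrl1, a receptor for BMP9 and BMP10, was lower in cortex by 1.68 (adjusted p = 0.0411). Acvrl1 lost its call without cortex 72, cortex 18 or any single lung array. Among venous genes, Emcn (-2.21, adjusted p = 0.00829), Ephb4 (-1.52, adjusted p = 0.00765) and Nrp2 (-0.78, adjusted p = 0.0112) were lower in cortex. Nr2f2, the venous identity factor, was at 0.20, the arterial ligand gene Efnb2 at 0.53 and the connexin gene Gja4 at -0.53, none of them called. Aplnr is itself known from veins, but its -0.88 lay between the venous median of -0.97 and the arterial median of -0.74. Its further probe set was at -1.14, so these values do not set a venous likeness apart from an arterial one. After scaling to an equal pan-endothelial mean, 1 arterial gene, Bmx, stayed called in lung, while 3 of 13 arterial and 1 of 5 venous genes were called in cortex, beside 45.0% of all genes. Emcn is also among the pan-endothelial genes that set the scaling.

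Around Plaur, 16 listed genes of plasminogen activation and its receptors were measured. In cortex 2 were called higher and in lung 4, beside 10.4% and 7.71% of all genes, with a median difference of -0.07. Plau, the gene of urokinase itself, read 4.56 to 5.07 in cortex and 4.86 to 5.13 in lung, below 6 on all 8 arrays, with a difference of -0.17 (limma adjusted p = 0.470). Plat, the gene of tissue plasminogen activator, was at 1.18 (adjusted p = 0.198). A further probe set of Plat was at 0.99 and passed over all probe sets (adjusted p = 0.0140), and the mean of both was at 1.09 and passed (adjusted p = 0.0388). The receptor of urokinase thus differed while its ligand was read low in both tissues.

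S100a10, which binds plasminogen at the cell surface together with Anxa2, was 7.85-fold higher in lung. It read 8.31 to 9.78 on the cortex arrays and 12.03 to 12.24 on the lung arrays, with a difference of -2.97 (adjusted p = 0.000206) that stayed called after scaling to an equal pan-endothelial mean (-1.61, adjusted p = 0.0208). The integrin genes Itgb3 (-1.50, adjusted p = 0.0171) and Itgb1 (-1.37, adjusted p = 0.0375), whose products pair with the urokinase receptor at the membrane, and Igf2r (-1.10, adjusted p = 0.0486), which binds the urokinase receptor, were also lower in cortex. A further probe set of Itgb3 was at -0.11, and the call of Itgb1 was lost under 5 of the 8 fits that left out an array. After scaling to an equal pan-endothelial mean neither was called, with Itgb3 at -0.14 (limma adjusted p = 0.822) and Itgb1 at -0.01 (0.989). For Igf2r the tissues overlapped, with cortex 19 at 11.08 and lung 18 at 10.95. Anxa2 was at -0.87 and was not called.

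Vtn, the gene of vitronectin, which the urokinase receptor binds in the matrix, was 8.16-fold higher in cortex. It read 7.21 to 8.89 on the cortex arrays and 4.95 to 5.65 on the lung arrays, with a difference of 3.03 (adjusted p = 0.000496). Lrp1, the receptor that clears urokinase complexes from the surface, was 6.54-fold higher in cortex (difference 2.71, adjusted p = 0.0118). Without cortex 72 and 18 the call of Lrp1 was lost, and a further probe set of it read 0.95. All 16 neural genes and 4 of 14 macrophage genes were called higher in the cortex sorts as well, with the list means given above. Of 15 mural and mesenchymal genes 1 was also called higher there, and 9 were called higher in lung. The part of these cell types in the values of Vtn and Lrp1 was not tested. The count of lung calls fell to 2 without cortex 72, cortex 18, lung 72, lung 22 or lung 19 alone.

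Hypoxia raises Apln in many cells, so genes that it induces were set beside it. Of 15 such genes 2 were called higher in cortex and 3 in lung, beside 10.4% and 7.71% of all genes. The median difference was -0.27. Slc2a1, the gene of the glucose transporter of brain vessels, was 1.99-fold higher in cortex (difference 0.99, adjusted p = 0.00883) and Bnip3 1.67-fold (0.74, adjusted p = 0.0402). Egln3, an oxygen-sensing hydroxylase, was 4.47-fold higher in lung (-2.16, adjusted p = 0.000201). Car9 (-1.26, adjusted p = 0.0191) and the glycolytic gene Aldoa (-0.55, adjusted p = 0.0223) were also lower in cortex, and Vegfa was at 0.04. The other 10 did not pass. After scaling to an equal pan-endothelial mean none of the 3 lung calls stayed, beside 0.753% of all genes called in lung. Egln3 was then at -0.80 (limma adjusted p = 0.198), Car9 at 0.10 (0.878) and Aldoa at 0.82 (0.188), while Slc2a1 and Bnip3 stayed called in cortex. On the deposited values Bnip3 lost its call under 6 of the 8 fits that left out an array. Leaving out 1 array at a time gave 1 to 3 calls in cortex and 1 to 4 in lung. The single lung call came without cortex 18, and the single cortex call without cortex 72, cortex 22, cortex 18, lung 22, lung 19 or lung 18.

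**Figure D5:**
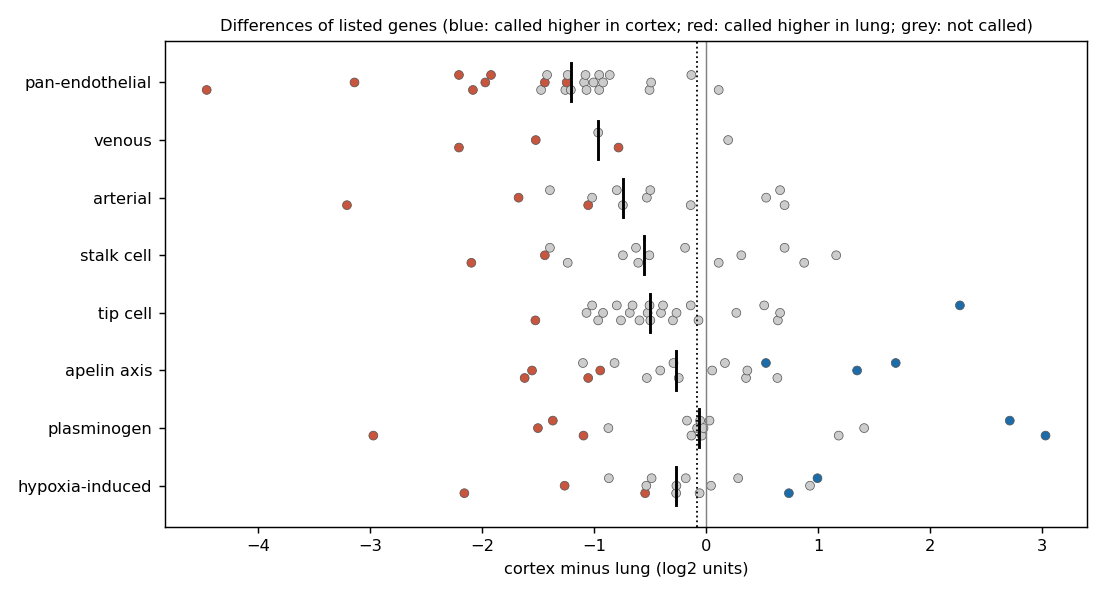
Cortex minus lung difference in log2 units (horizontal axis) of the genes of 8 lists (rows); blue points were called higher in cortex, red points higher in lung and grey points not called, thick bars are list medians and the dotted line is the median of all genes, -0.09. The medians run from -1.21 for the pan-endothelial list to -0.07 for the plasminogen list, and that of the tip cell list is -0.50. Some genes belong to more than 1 list.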

How the data were processed

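For each probe set of Affymetrix Mouse Genome arrays, the authors deposited a log2 value. Per the labels' protocols, 15 to 30 ng of RNA was linearly amplified and biotin-labelled. Per the submitters' processing notes, RMA and the affy package were used, with versions not given in the sources used here. RMA corrects background, sets all arrays to one distribution and summarises probes, so each difference is relative to the rest of the array, and low values are compressed. No depth applies, and the number of arrays (4 per tissue) limits the precision. All columns were mapped to a sample by identifier, leaving 0 unmapped.

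Of 45101 probe sets, 64 controls were left out. Of the other 45037, 34945 named 1 gene in the platform annotation, 932 named several, and 9160 have no name here. By gene number, 34741 of the 34945 matched RefSeq (GRCm38.p6), and 0 symbols changed. Each of 18193 genes was read from its single-gene probe set with the highest mean. The tissues were set against each other in limma 3.58.1 (R 4.3.3; lmFit, then eBayes, two-sided, with tissue alone in the model). Adjusted p-values are Benjamini-Hochberg values over all genes, and a call is an adjusted p under 0.05. Single values per array were tested by exact permutation. The fit was tested on simulated data, with noise independent between genes and fewer changed genes than were called in the real data. Its counts may thus differ where noise is shared between genes. The fit called 25 of 100 differences of 1 and 74 of 100 differences of 2 in the right direction, with 3 false calls. A gene that was not called can thus still differ. No slide or scan batch is given in the sources used here. Figures were drawn with matplotlib 3.10.9 in Python 3.11.15.

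The 4 genes, the gene lists and the named genes were chosen with earlier results of these data known. Named were, per list, up to 3 called genes with the largest difference in each direction, preset genes of each pathway, and the 5 genes most correlated with each member; symbols of unnamed transcripts were left out. Mef2c, Igf2r, Anxa2, Cldn5, Flt1 and Gpihbp1 were added after their values were seen. Alternatives changed the probe set rule, a filter on dim genes (a value of at least 6 on 4 or more arrays), centring, scaling to the pan-endothelial mean, array weights, an intensity trend, a replicate block and the arrays included.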

Additional observations from a re-analysis of the deposited data

How the results depend on the processing

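Scaling to an equal pan-endothelial mean turned Apln (1.16), Aplnr (0.48) and Esm1 (0.79) and brought Plaur to 0.014, with no clear sign. This scaling called 8182 genes in cortex and 137 in lung. It also turned Gja5 (0.31), Car9 (0.10), Aldoa (0.82), Nrp2 (0.58), Plau (1.19), Dll4 (1.22), Unc5b (0.86), Pdgfb (0.84), Kdr (0.85), Gja4 (0.83), Tek (0.12) and Cdh5 (0.10); the scaling itself adds 1.36 to every difference. Without cortex 72 and 18, a choice made after seeing the data, 1057 and 632 genes were called, Plaur was at -1.12 and no longer passed, and Apln (0.53), Esm1 (0.29), Dll4 (0.52), Unc5b (0.41), Pdgfb (0.58), Kdr (0.38), Gja4 (0.24) and Vegfa (-0.12) turned. Fitting all probe sets called 3278 and 2197, and array weights called 2233 in lung. Leaving out each array in turn gave -0.49 to 0.080 for Apln, -1.12 to -0.68 for Aplnr, -0.29 to 0.31 for Vegfa, -0.080 to 0.72 for Nid2, -0.43 to 0.30 for Dll4, -0.87 to 0.0059 for Unc5b and -0.073 to 0.38 for Nr2f2. Nr2f2 was at -0.073 and Vegfa at -0.10 with the mean of a gene's probe sets, Nr2f2 at -0.073 and Vegfa at -0.29 with array weights, and Vegfa at -0.034 with centred arrays. The causes were not tested. Same-numbered arrays correlated in their deviations at 0.33, -0.16, 0.01 and 0.31 (72, 22, 19, 18), and 2 of 4 matched their own number best, so the numbers were not used as pairs. With the number as a replicate block 1801 and 1342 genes were called, and the adjusted p was 0.740 for Apln, 0.0931 for Aplnr, 0.375 for Esm1 and 0.0233 for Plaur. By exact sign flips over these 4 pairs, where 0.125 is the smallest p, Apln relative to the pan-endothelial mean gave 0.125. The filter on dim genes left out Esm1, so it has no value there. Plaur kept its direction and its call under the other alternatives, and with 4 arrays per tissue the intervals of Apln and Esm1 include a change of 2-fold towards lung.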
